A study of Mus musculus with 16 samples.

Results

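The response of the mouse left ventricle to aortic banding was read over all 16 arrays of the series, with 8 arrays from banded animals on one side and 8 from sham-operated animals on the other. An array was placed by the operation letter in its name, and the letter for sex entered the model as a blocking term, so that each side held 4 males and 4 females. Every animal was a C57BL/6J mouse aged 12 to 14 weeks and carried no engineered allele in the labels. The banded groups, male TAC and female TAC, had undergone transverse aortic constriction, a surgical narrowing of the aortic arch that puts the left ventricle under pressure overload. The control groups, male sham and female sham, were sham-operated. RNA was taken from the whole left ventricle 14 days after the operation, and 1 animal was hybridised per array. The series was designed to compare the response of the sexes; the pooled comparison described here estimates the change averaged over the sexes, including changes too small to pass in 4 against 4 arrays, and does not require a change in each sex.

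A ventricle pumping against a raised pressure enlarges its muscle cells, which return in part to the gene programme of the fetal heart, with slow myosin, skeletal actin and natriuretic peptides. Fibroblasts lay down collagen and matricellular proteins between the muscle cells. The muscle cells, which in health draw most of their energy from mitochondrial oxidation of fatty acids, lower transcripts of fuel oxidation and of repolarising ion channels. In RNA from whole tissue, fewer cells of a type and less RNA per cell cannot be told apart.

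Signals are the authors' scaled intensities. A change is the difference between banded and sham arrays in log2(signal + 16), positive where the banded arrays were higher, with its standard error (SE) from a limma model with sex as a block. "Rose" and "fell" are used of probe sets whose Benjamini-Hochberg adjusted p in that model was below 0.05, counted over the 13575 probe sets brighter than a mean signal of about 130.8. Where counts are given per gene, each of 8272 genes is represented by its brightest probe set.

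The arrays separated by operation, and so did measures of RNA and labelling quality. Along the leading principal component, with 28.2% of the variance, the 8 banded arrays separated from the 8 sham arrays. The Gapdh 3′/5′ signal ratio, which rises when transcripts are copied less completely, lay between 0.958 and 1.16 on the banded arrays and between 0.785 and 0.921 on the sham arrays. The groups did not overlap, and the difference of 0.160 had an exact 2-sided permutation p of 0.000408, the smallest that regrouping within the sexes allows (adjusted over 3 measures, 0.00122). The same ratio for actin was 0.312 higher on the banded arrays (exact permutation p = 0.00367, adjusted 0.00367). The 5′ signal of 18S ribosomal RNA, on the log2 scale, was lower on the banded arrays, with a difference of -2.38 (exact permutation p = 0.00204, adjusted 0.00306), and male TAC 5, at 13.2, stood apart from the other 7 banded arrays, which lay between 9.11 and 10.7. The part of these measures in the changes below was not tested. The number of calls that also passed with the Gapdh ratio or with the 18S signal added to the model is given with the gene groups described. Since the Gapdh ratio almost coincides with the operation, adding it raised the median SE from 0.145 to 0.282.

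**Figure D1:**
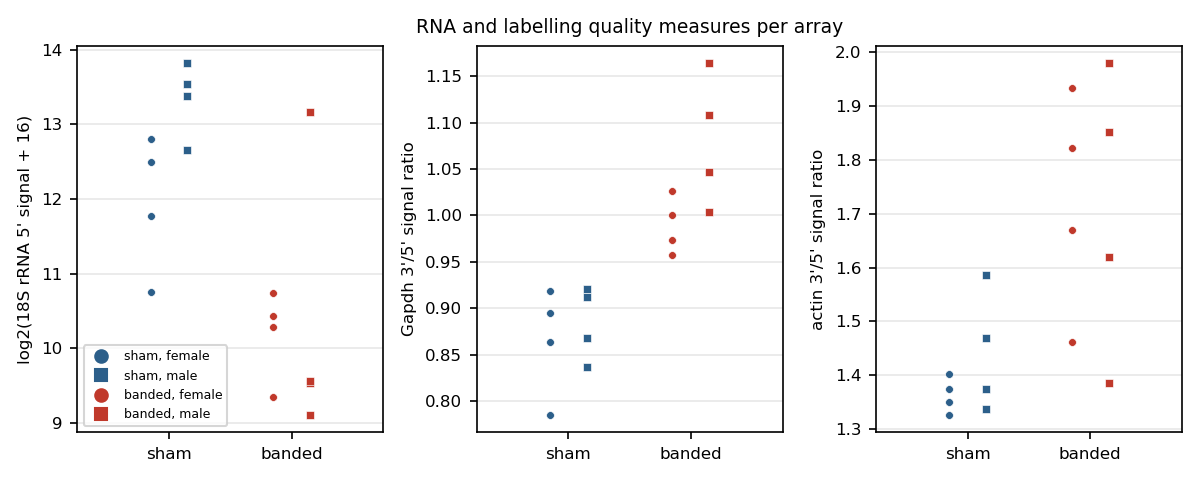
RNA and labelling quality on each of the 16 arrays. The vertical axes show log2(signal + 16) of the 5′ probe set of 18S rRNA, the 3′ to 5′ signal ratio of Gapdh and that of actin; points are arrays, squares are males and circles females. The Gapdh ratio does not overlap between sham arrays, at most 0.921, and banded arrays, at least 0.958.

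Signals differed between banded and sham ventricles over a large share of the measured transcripts, mostly by small amounts. Of the 13575 probe sets, 3881 passed (28.6%), of which 1731 rose (12.8%) and 2150 fell (15.8%). Per gene, 2183 of 8272 passed (26.4%), with 1094 rises (13.2%) and 1089 falls (13.2%). The 8 banded arrays lay entirely above or below the 8 sham arrays for 1011 probe sets (7.45%) and 513 genes (6.2%). The balance of directions depended on the scaling: 44.6% of the passing probe sets were higher after banding with the deposited scaling and 60.4% after each array was centred on its median, while the median change of all probe sets moved from -0.03 to 0.05. With the Gapdh ratio in the model 572 probe sets passed (4.21%), and with the 18S signal 1944 (14.3%). Of the 3881 pooled calls, 97.5% kept their sign with the Gapdh ratio and 99.6% with the 18S signal. After adding the Gapdh ratio 548 of them passed (14.1%), among them 193 of the 463 of at least 2-fold (41.7%), 124 of the 2150 under 1.5-fold (5.77%) and 32 of the 1059 that passed within neither sex (3.02%). With the 18S signal these numbers were 1688 (43.5%), 366 (79.0%), 603 (28.0%) and 188 (17.8%).

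Most of the passing changes were below the fold sizes by which array studies are commonly filtered. The median size was 0.55 on the log2 scale, and 2150 probe sets (15.8%) passed with a change of less than 1.5-fold, against 463 (3.41%) with at least 2-fold. Per gene these were 1366 (16.5%) and 191 (2.31%), the latter with 121 rises (1.46%) and 70 falls (0.846%). The pooled model had a median SE of 0.145, compared with 0.203 within males and within females, where 2422 (17.8%) and 2045 (15.1%) probe sets passed and 1297 (9.55%) passed in both and in the pooled model. Of the pooled calls, 1059 (7.8%) passed within neither sex. Their share was 71.4% among the 112 calls below 0.25 on the log2 scale, 42.5% among the 1523 between 0.25 and 0.5, 6.44% among the 435 between 1 and 2 and 0.0% among the 28 of 2 or more. Small changes were found chiefly in bright probe sets: when the probe sets were split by mean signal into 3 equal parts, 29.9% of the brightest part passed with less than 1.5-fold, against 3.16% of the dimmest, whose median SE of 0.217 was above the 0.102 of the brightest.

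**Figure D2:**
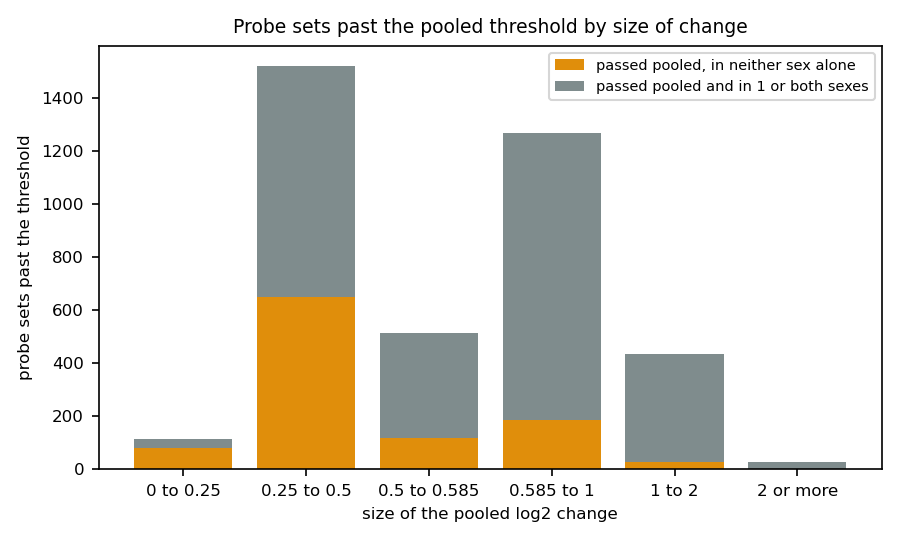
Probe sets past the pooled threshold, by the size of their log2 change in bins of unequal width. The orange part of each bar passed in neither sex alone; it makes up 80 of 112 in the smallest bin and 0 of 28 in the largest.

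Small changes that passed within one sex mostly had the same sign in the animals of the other, which had no part in choosing them. When the sexes were fitted separately, 538 probe sets passed in males with less than 1.5-fold, and 95.9% of them had the same sign in females, where 65.6% also had an unadjusted p below 0.05. Over all 13575 probe sets the share of equal sign was 72.6%. Chosen in females, 577 such probe sets had the same sign in males in 96.9% of cases and an unadjusted p below 0.05 in 68.6%. The median size read in the other sex was below that at which the probe sets were chosen, 0.37 against 0.49 for those chosen in males and 0.41 against 0.49 for those chosen in females. This reading does not cover the pooled calls that passed within neither sex, and the Gapdh ratio was higher on the banded arrays in both sexes, by 0.196 in males and 0.124 in females; its part in the shared signs was not tested. The difference between the female and the male response passed for 0 probe sets (0.0%) in limma, with 897 (6.61%) at an unadjusted p below 0.05.

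Most of the 12 largest rises with non-overlapping groups were genes of the fetal cardiac programme or the extracellular matrix. Myh7, the slow β-myosin heavy chain that predominates before birth, had a signal between 790.5 and 1717 (median 965) on the sham arrays and between 5172 and 30050 (median 14196) on the banded arrays. It rose 12.8-fold, a log2 change of 3.67 (SE 0.274, adjusted p = 6.99e-09), and its groups did not overlap. Acta1, skeletal α-actin, went from 1705 to 9621 (median 2651) to between 16776 and 34150 (median 25773). It rose 7.03-fold (2.81, SE 0.242, adjusted p = 3.75e-08). Nppa, the gene of atrial natriuretic peptide, lay between 2958 and 6215 (median 3651) in shams and between 12095 and 39484 (median 26704) after banding, a 6.03-fold rise (2.59, SE 0.187, adjusted p = 4.32e-09). For Nppb, which encodes brain natriuretic peptide, the ranges were 2819 to 7059 (median 4692) and 12502 to 24692 (median 18790), a rise of 1.97 (SE 0.153, adjusted p = 1.18e-08). The lowest banded array exceeded the highest sham array for each of these genes.

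Of the 12 measured genes of the fetal and stretch-response list, 10 rose and 0 fell, with a median change of 1.53. Tnfrsf12a, the receptor of the cytokine TWEAK, rose by 2.52 (adjusted p = 1.2e-09), from at most 958.1 on the sham arrays to at least 2595. Ankrd1, a stretch-responsive protein of the sarcomeric I-band, rose by 1.49, Rcan1, a calcineurin inhibitor, by 1.57 and Fhl1, a LIM-domain protein of the titin spring region, by 1.16. Csrp3 (0.34) and Xirp1 (0.52) passed with less than 1.5-fold. Fhl2 (-0.07) and Acta2 (-0.01) did not pass. All 10 passed with the 18S signal in the model and 7 with the Gapdh ratio. Beside Nppa, which is also an atrial marker, Myl4 was at 315 to 1322 on banded arrays and 221.7 to 375.6 on shams. Myl7 and Sln, which define atrial muscle, were below the signal limit in their mean over the 16 arrays and were not tested. Myl7 lay between 15.9 and 748.4 (median 170) on banded arrays and between 8.3 and 129.3 (median 20.9) on shams. Sln lay between 7.5 and 309.7 (median 52.9) on banded arrays and between 8.3 and 30.9 (median 15) on shams. Bmp10 (0.92) and Dkk3 (0.67) were the other atrial markers, and 2 of the 4 measured members of that list rose. Its summed signal, 13643 to 41173 after banding against 3260 to 6967, consisted mostly of Nppa itself and so repeats the rise of that gene. The part of atrial tissue in the rise of Nppa was not tested.

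**Figure D3:**
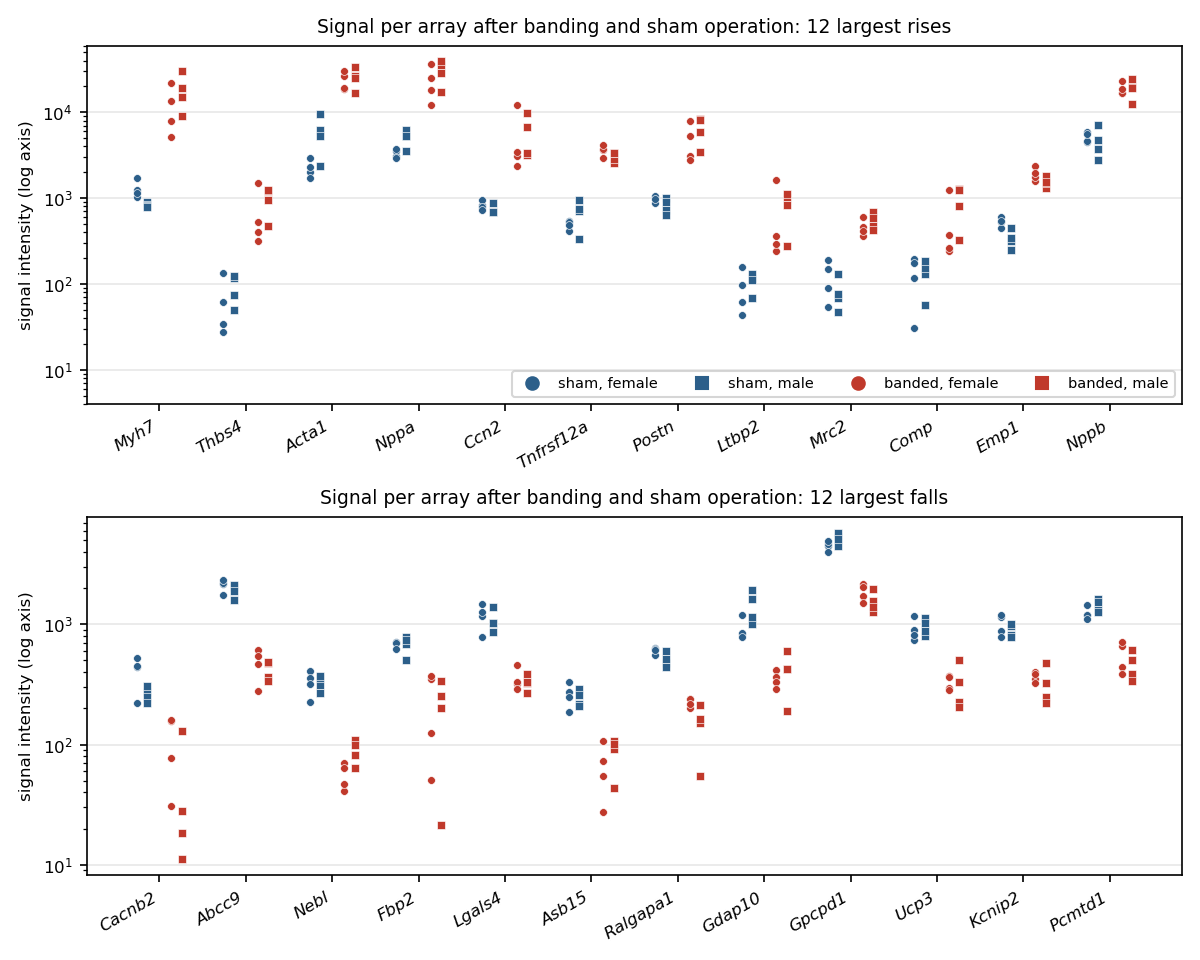
Signal on each array, on a log axis, of the 12 largest rises (upper panel) and the 12 largest falls (lower panel) among genes whose groups do not overlap. Points are arrays, red for banded and blue for sham, squares for males and circles for females; for Myh7 the banded arrays sit between 5172 and 30050 and the sham arrays between 790.5 and 1717.

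Sequence before the start sites was examined for 9 short motifs, on both strands, in RefSeq promoter windows of 300 bases (build GRCm38.p6), which were found for 6714 of the tested genes. The 3 promoters below were chosen after the values of their genes were seen. They show the CArG box, the site of serum response factor, and the MCAT element GGAATG, the site of TEAD factors, before Acta1; a CArG box before the calponin gene Cnn2; and the element AAGGTCA bound by estrogen-related receptors (ERR) before Acadm, which encodes medium-chain acyl-CoA dehydrogenase. Each is the 250 bases that end at the start site, 5′ to 3′ on the gene's strand, with the motif letters, or their reverse complement, in capitals. Acta1 lies at chr8:123894776-123895025 on the minus strand, Cnn2 at chr10:79988350-79988599 on the plus strand and Acadm at chr3:153944644-153944893 on the minus strand.
Acta1: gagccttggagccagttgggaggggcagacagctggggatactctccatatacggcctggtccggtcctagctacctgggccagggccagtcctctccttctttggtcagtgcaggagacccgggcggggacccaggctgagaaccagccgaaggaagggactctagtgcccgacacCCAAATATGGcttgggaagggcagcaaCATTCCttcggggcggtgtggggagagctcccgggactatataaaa
Cnn2: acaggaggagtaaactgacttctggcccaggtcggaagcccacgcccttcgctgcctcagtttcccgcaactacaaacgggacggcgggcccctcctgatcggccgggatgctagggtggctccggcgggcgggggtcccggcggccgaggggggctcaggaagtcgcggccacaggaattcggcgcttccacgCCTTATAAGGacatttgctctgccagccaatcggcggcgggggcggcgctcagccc
Acadm: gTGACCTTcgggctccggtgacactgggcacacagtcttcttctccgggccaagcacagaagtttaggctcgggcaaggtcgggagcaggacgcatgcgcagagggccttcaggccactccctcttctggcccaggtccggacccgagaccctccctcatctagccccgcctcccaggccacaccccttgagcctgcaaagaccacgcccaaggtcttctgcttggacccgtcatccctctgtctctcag

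A CArG box was found for 3 of 11 genes of the fetal and stretch-response list with a window (27.3%): Acta1, Fhl1 and Fhl2, of which Fhl2 did not pass. It was found for 6 of 33 actin cytoskeleton regulators (18.2%): Actg1, Cnn2, Myl9 and Vcl, which rose, and Arpc4 and Myl6, which did not pass. Over all 6714 genes the share was 1.68%, and it was 2.05% of the 876 that rose and 2.23% of the 898 that fell. The MCAT element was found for 14.8% of all genes, 18.3% of those that rose and 14.1% of those that fell. The ERR element was found for 3.95% of all genes, 3.31% of those that rose and 4.57% of those that fell, and Acadm was the 1 gene with it among 20 of fatty acid oxidation (5.0%). The other 6 motifs were the MEF2 site, the NRF1 site, the AP-1 sites TGACTCA and TGAGTCA, the PPAR element, the D-box letters TTACGTAA and TTATGTAA, and the hypoxia core ACGTG. Their shares in all genes, in rises and in falls were 2.26%, 2.28% and 2.45% for the MEF2 site, 2.31%, 1.71% and 1.89% for NRF1, 4.99%, 5.14% and 5.23% for AP-1, 0.0298%, 0.0% and 0.111% for the PPAR element, 0.953%, 0.913% and 0.557% for the D-box, and 29.2%, 30.7% and 30.6% for the hypoxia core. ERR and PPAR elements can share letters, as can CArG boxes and MEF2 sites, and a match describes letters only.

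Extracellular matrix genes rose, from fibrillar collagens to the enzymes that fold them, and 0 collagens fell. Of 19 measured collagens, 15 rose, with a median change of 1.05. Col1a2, the α2 chain of type I collagen, lay between 1411 and 1869 (median 1697) in shams and between 3861 and 9820 (median 5835) after banding. It rose by 1.91 (SE 0.159, adjusted p = 2.76e-08). Col5a2 rose by 1.96, Col3a1 by 1.43 and the basement membrane chain Col4a1 by 1.05. Those that did not pass were Col4a3 (-0.37), Col12a1 (-0.17), Col4a5 (0.28) and Col18a1 (0.43). With the 18S signal in the model 14 of the 15 passed, and with the Gapdh ratio 5.

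Matricellular and elastic fibre genes included Thbs4, with 19 of 25 rising, 1 falling and a median of 1.20. Thbs4, thrombospondin 4, was dim on the sham arrays, between 27.3 and 134.3 (median 68), and lay between 319 and 1505 (median 747.8) after banding. It rose by 3.11 (SE 0.307, adjusted p = 2.14e-07), a size that depends on the offset because the sham signals are low: 3.40 with a pseudocount of 1 and 2.54 with 64. Ccn2, connective tissue growth factor, went from 681 to 943.8 (median 755) to between 2348 and 12165 (median 3402), a rise of 2.57 (SE 0.266, adjusted p = 3.76e-07). Postn, periostin, went from 628.2 to 1052 (median 935.7) to between 2784 and 8282 (median 5619), a rise of 2.52 (SE 0.213, adjusted p = 3.21e-08). Ltbp2 rose by 2.45 and Comp by 2.18, and neither passed with the Gapdh ratio in the model (adjusted p = 0.0535 and 0.765). The sham signals of Ltbp2 were low as well, with a median of 104. The elastin gene Eln (1.33), the crosslinking enzymes Lox (1.40) and Loxl1 (1.93) and fibronectin, Fn1 (1.20), rose as well. Ltbp1, a latent TGF-β binding protein, was the 1 member that fell (-0.93). Of the 20 changes of this list 17 passed with the 18S signal in the model and 6 with the Gapdh ratio. Mrc2, an endocytic collagen receptor, rose by 2.24 from a low sham median of 82.8, and the membrane protein gene Emp1 by 1.98. Timp1, an inhibitor of matrix metalloproteases, rose by 1.72 (adjusted p = 1.15e-05).

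Of 15 collagen folding and processing genes 9 rose and 0 fell, with a median of 0.38, and 4 of the 9 passed with the Gapdh ratio in the model and 5 with the 18S signal. Pcolce, which enhances procollagen cleavage, rose by 1.29 and the collagen chaperone gene Serpinh1 by 0.77. Of the 8 small leucine-rich proteoglycans, Bgn (1.27), Aspn (1.42), Fmod (1.46) and Prelp (0.52) rose, while Dcn (-0.10) and Lum (0.13) did not pass. Another measured probe set of Aspn had the opposite sign. Of these 4 rises 1 passed with the Gapdh ratio and 3 with the 18S signal. Among 24 TGF-β and BMP signalling genes, 5 rose, among them the ligand genes Tgfb2 (1.19) and Tgfb3 (1.16), and 2 fell, Tgfbr3 (-0.93) and Bmpr1a (-0.24); after median centring 8 rose and 1 fell, and 1 fell without each of 11 single arrays. The share called, 29.2%, was close to the 26.4% of all genes, and of these 7 changes 1 passed with the Gapdh ratio and 2 with the 18S signal. Tgfb1, at 0.13 (adjusted p = 0.423), did not pass.

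The matrix changes stood beside unequal changes of cell type markers. Of the 10 measured fibroblast markers 5 rose, the 3 collagens Col1a1, Col1a2 and Col3a1 with Dpt (0.49) and Gsn (0.38). Pdgfra (0.08), Tcf21 (0.17), Dcn (-0.10), Lum (0.13) and Ddr2 (-0.26), which are not collagens, did not pass. The summed signal of the list, which contains the 3 collagens and so repeats their rise, ran from 38892 to 58767 after banding and from 27410 to 36633 in shams. Of 13 macrophage markers 6 rose, including Ctss (0.80), Adgre1 (0.63), Csf1r (0.58) and Lyz2 (0.51). The 4 with a negative change, Cd163 (-0.34), Mrc1 (-0.13), Cd68 (-0.08, adjusted p = 0.742) and Fcgr1 (-0.03), did not pass. The summed signals of the macrophage list were 13117 to 18434 against 10699 to 15217. The endothelial markers showed 2 rises among 11, Cldn5 (0.73) and Vwf (0.80), of which 1 passed without male TAC 2. The other 9 did not pass, and 6 of the 11 had a negative change. Their sums were 8986 to 12343 against 9156 to 11352. Of 9 smooth muscle and pericyte markers 3 rose, among them Des (0.52), which is also counted with the sarcomere genes below. The changes of Pdgfrb (0.58), Tagln (0.54) and Notch3 (0.21) were positive as well. A negative change was seen for 5, among them Myh11 (-0.74) and Acta2 (-0.01), and 0 fell. The sums of this list were 24413 to 27689 against 20521 to 28368. Called were 50.0% of the fibroblast, 46.2% of the macrophage, 18.2% of the endothelial and 33.3% of the smooth muscle and pericyte markers. Over all genes the share was 26.4%, with 13.2% that rose. No T cell marker exceeded the signal limit. Of the marker rises, 2 of 5 for fibroblasts, 1 of 6 for macrophages, 0 of 2 for endothelium and 0 of 3 for smooth muscle passed with the Gapdh ratio in the model, and 3, 2, 0 and 1 with the 18S signal. The part of cell composition in the matrix rises was not tested.

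Cytoskeletal genes of actin and of microtubules rose, many by small amounts. Of 35 actin cytoskeleton regulators 26 rose and 0 fell, with a median of 0.43, and 16 of them changed by less than 1.5-fold. Cnn2 lay between 399.8 and 665.3 (median 589) in shams and between 948.7 and 1329 (median 1138) after banding, a rise of 0.99 (SE 0.112, adjusted p = 1.19e-06). Tmsb10 and Pfn1, which bind actin monomers, rose by 0.98 and 0.82 (another probe set of Tmsb10 had the opposite sign), the β- and γ-actins Actb and Actg1 by 0.47 and 0.68, and the filamins Flna and Flnc by 0.45 and 0.54. Of 11 tubulin and microtubule genes 9 rose and 0 fell: Tubb2a by 1.65 (adjusted p = 3.21e-08), Tuba1a by 1.35 and the plus-end binding protein gene Mapre1 by 0.50. With the 18S signal in the model 11 of the 26 actin genes and 5 of the 9 tubulin genes passed, and with the Gapdh ratio 4 and 3.

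The adult sarcomere moved in both directions. Of 23 genes 10 fell and 4 rose, with a median of -0.06 that was 0.03 after median centring, where 6 fell and 5 rose, and under quantile normalization 3 fell and 6 rose. Of the 14 changes 2 passed with the Gapdh ratio in the model and 5 with the 18S signal. Myh6, the fast α-myosin heavy chain of the adult mouse ventricle, lay between 46214 and 58321 (median 48314) in shams and between 33693 and 43290 (median 39643) after banding. Its groups did not overlap although the fall was 1.28-fold (-0.35, SE 0.0558, adjusted p = 6.1e-05); under quantile normalization its change was -0.01 and did not pass (adjusted p = 0.955). Myl2 (-0.41), Ttn (-0.36), Tnni3 (-0.34) and Actc1 (-0.31) fell by similar amounts. Nebl, the Z-disc protein nebulette, fell by 2.00, from 224.3 to 411.1 (median 338.8) to between 40.9 and 108.2 (median 67.2). All its banded signals lay under the limit of about 130.8, so it was kept through its sham signals and the size of the fall is uncertain. It was 2.23 with a pseudocount of 1 and 1.54 with 64. Myot (0.86), Des (0.52), Mybpc3 (0.34) and Pdlim5 (0.25) rose. Myh6 did not pass with the Gapdh ratio in the model (adjusted p = 0.235). Of the 8 ventricular muscle markers 7 fell and Myh7 rose, with summed signals of 191460 to 287020 after banding and 255990 to 307730 in shams. After median centring 4 of these markers fell and 1 rose, and under quantile normalization 1 fell and 2 rose.

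Several genes of excitation and calcium cycling fell. Abcc9, the sulfonylurea receptor subunit of ATP-sensitive potassium channels, lay between 1590 and 2332 (median 2070) in shams and between 279.4 and 607.2 (median 470.9) after banding. It fell by 2.16 on the log2 scale (SE 0.133, adjusted p = 5.12e-10). Kcnip2, a subunit of the transient outward potassium current, went from 789.9 to 1185 (median 923.6) to between 221.4 and 473.6 (median 336.4), a change of -1.45 (SE 0.136, adjusted p = 1.11e-07). Its pore partner Kcnd2 fell by 0.96. Of the 12 potassium and sodium channel genes 5 fell and 0 rose, with Kcnj3 (-0.46) and Kcnh2 (-0.33) as the other members that fell. After median centring 4 fell, and 3 of the 5 passed with the Gapdh ratio in the model and 4 with the 18S signal.

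In the calcium handling list 8 of 16 genes fell and 2 rose, with a median of -0.35, and after median centring 7 fell and 4 rose. Pln, phospholamban, the inhibitor of the sarcoplasmic calcium pump, separated the groups completely with less than 1.5-fold, from 30789 to 41036 (median 34947) in shams to between 21435 and 26865 (median 22888) after banding, a fall of 0.58 (SE 0.0581, adjusted p = 2.41e-07). Atp2a2, the pump itself, fell by 0.44 (adjusted p = 0.000167), but its change was -0.16 under quantile normalization and did not pass (adjusted p = 0.0675). Further falls were those of the release channel Ryr2 (-0.49), the exchanger Slc8a1 (-0.73) and the L-type channel Cacna1c (-0.63). Cacnb2, the channel's β subunit, went from 221.2 to 526.5 (median 288.4) in shams to low signals of 11.2 to 159.4 (median 54.3) after banding. It fell by 2.20, or by 2.61 with a pseudocount of 1 and 1.59 with 64, and did not pass with either quality measure in the model. Casq2 (0.38), a calcium store protein, and S100a1 (0.37), a calcium sensor, rose. With the Gapdh ratio in the model 1 of these 10 changes passed, that of Pln (adjusted p = 0.00186), and 6 with the 18S signal.

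Fatty acid uptake and oxidation was the list with the largest share of falls among the 43 examined, 21 of 24, with 0 rises and a median of -0.49, against 13.2% of all genes that fell. Etfdh, which passes electrons from acyl-CoA dehydrogenases to ubiquinone, lay between 8439 and 10256 (median 9202) in shams and between 4706 and 5471 (median 5070) after banding, a fall of 0.87 (SE 0.0618, adjusted p = 4.06e-09). Hadhb, the β subunit of the trifunctional protein, went from 21961 to 27267 (median 24810) to between 14585 and 17208 (median 15158), a change of -0.67 (SE 0.055, adjusted p = 2.53e-08). Acaa2 (-0.93), Hadha (-0.90), Acadm (-0.79), Cpt2 (-0.75) and the uptake genes Cd36 (-0.49) and Slc27a1 (-0.61) fell too. Acot2 (-0.38), Acads (-0.13) and Slc25a20 (0.11) did not pass. Under median centring and under quantile normalization 19 of the 24 fell, with the 18S signal in the model 17 of the 21 passed, and with the Gapdh ratio 10. Ech1, a dienoyl-CoA isomerase filed here with the 23 peroxisomal genes, had the smallest p of the named genes: 21036 to 25232 (median 22509) against 10712 to 12391 (median 11983), a fall of 0.98 (SE 0.0551, adjusted p = 1.66e-10).

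The tricarboxylic acid cycle and pyruvate dehydrogenase list held 18 falls among 25 genes and 0 rises, with a median of -0.33. Pdha1, the catalytic subunit of pyruvate dehydrogenase, lay between 15609 and 16920 (median 16328) in shams and between 11720 and 13169 (median 12396) after banding, a fall of 0.39 (SE 0.0505, adjusted p = 5.96e-06). Its kinase Pdk4 fell by 1.87 (SE 0.271, adjusted p = 2.3e-05), between 4380 and 17466 in shams and between 1720 and 6901 after banding, so that the groups overlapped. Idh3a (-0.77), Dld (-0.73), Suclg2 (-0.88) and Sdha (-0.52) fell. Branched-chain amino acid catabolism showed 15 falls among 22 genes, such as Aldh6a1 (-0.86) and Bcat2 (-0.67), and 1 rise, that of Bdh1 (0.87), an enzyme of ketone body metabolism. After median centring the counts of falls in these lists were 13 and 15. With the Gapdh ratio in the model 7 of the 18 and 2 of the 16 changes passed, and with the 18S signal 9 and 13.

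Among respiratory chain subunits the falls that passed were small, and most subunits did not pass. Of 33 subunits of complex I 14 fell and 0 rose, with a median of -0.15, and of 37 subunits of complexes III to V 15 fell and 0 rose, also with a median of -0.15. All of these falls were below 1.5-fold, and 8 of the 15 in complexes III to V passed within neither sex. Ndufs4 fell by 0.46 (SE 0.0633, adjusted p = 1.24e-05), from 5112 to 6473 (median 5614) to between 3686 and 4730 (median 4092). Atp5a1, the α subunit of ATP synthase, fell by 0.44 (SE 0.0589, adjusted p = 1.0e-05), from 20411 to 24970 (median 22286) to between 14867 and 18196 (median 16418). These counts depended on the scaling: after median centring 7 subunits of complex I fell and 3 rose, and in complexes III to V 5 fell, with 6 falls and 1 rise there under quantile normalization. With the Gapdh ratio in the model 1 subunit of each list passed, and with the 18S signal 3 of each.

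Of 20 PPAR, ERR and PGC-1 regulators 6 fell, among them Ppargc1a (-0.45, adjusted p = 0.0125), Gabpa (-0.69) and Esrrg (-0.33), and 0 rose. The share of this list called was close to the 26.4% called over all genes, where 13.2% fell. Ppara (-0.27, adjusted p = 0.273) did not pass. Of these 6 falls 2 passed with the Gapdh ratio and 2 with the 18S signal. Glucose uptake and glycolysis genes moved in both directions, with 6 rises and 6 falls among 21 genes, or 9 and 4 after median centring. Of these 12 changes 1 passed with the Gapdh ratio and 8 with the 18S signal. Slc2a4, the insulin-responsive glucose transporter, fell by 0.53, the muscle isoforms Pygm by 0.76 and Pfkm by 0.47, while the widely expressed transporter Slc2a1 rose by 0.65 and the isoforms Pfkp by 0.98 and Pgam1 by 0.68. Ucp3, a mitochondrial uncoupling protein, fell by 1.51 (adjusted p = 3.69e-07) and Fbp2, the muscle fructose bisphosphatase, by 1.95. The 12 largest falls with non-overlapping groups also held Gpcpd1, a glycerophosphocholine phosphodiesterase, which went from 3989 to 5731 (median 4759) to between 1272 and 2153 (median 1637), a change of -1.51 (SE 0.107, adjusted p = 4.06e-09). Lgals4 (-1.67), Ralgapa1 (-1.58), Gdap10 (-1.58) and Pcmtd1 (-1.41) completed them, beside the channel, sarcomere and ubiquitin ligase genes Cacnb2, Abcc9, Kcnip2, Nebl and Asb15.

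**Figure D4:**
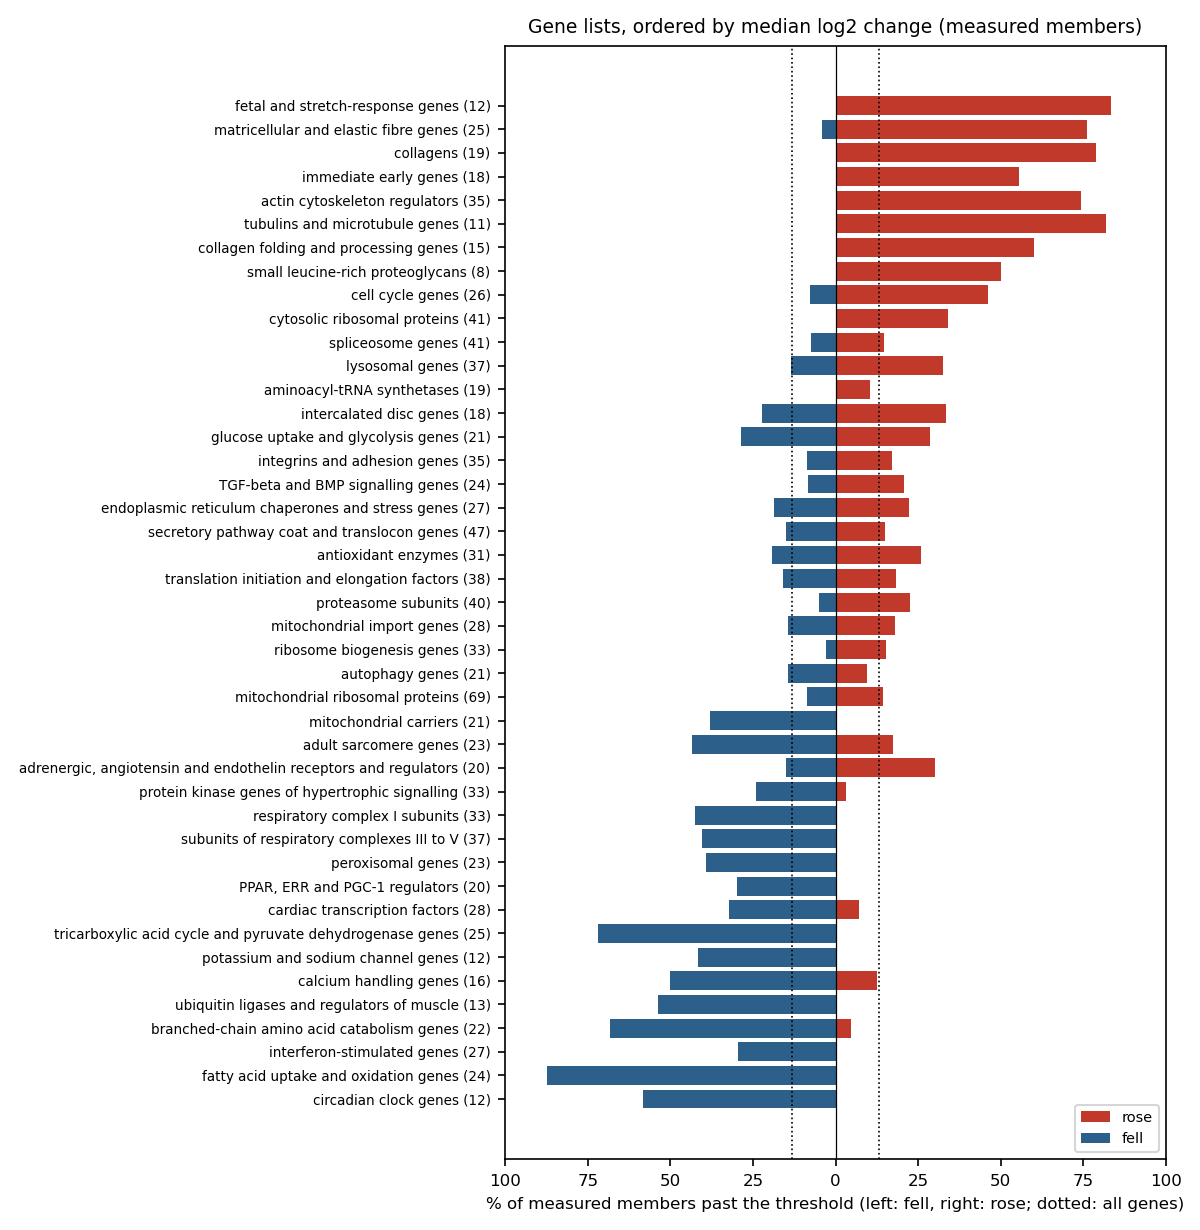
Share of the measured members of each of the 43 gene lists that rose (right) or fell (left), in percent, with the number measured in brackets, ordered by the median log2 change. The dotted lines mark the 13.2% of all genes that rose and the 13.2% that fell; the fetal and stretch-response list is at the top, with 10 of 12 rising, and the circadian clock list at the bottom, with 7 of 12 falling.

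The 20 genes named for small changes, the 10 rises and 10 falls of smallest p with less than 1.5-fold and non-overlapping groups, are examples whose separation follows from that choice. There were 165 genes of this kind (1.99%), 65 that rose (0.786%) and 100 that fell (1.21%). Among the named rises, Gnai2, an inhibitory G protein subunit, lay between 2408 and 3116 (median 2606) in shams and between 3378 and 4086 (median 3650) after banding, a rise of 0.46 (SE 0.0639, adjusted p = 1.6e-05). Hspb8, a small heat shock protein that acts in chaperone-assisted autophagy, went from 4064 to 5178 (median 4753) to between 5830 and 7115 (median 6665), a rise of 0.48 (SE 0.0655, adjusted p = 1.09e-05). Both separated the groups completely with a change under 1.4-fold for Gnai2 and of 1.4-fold for Hspb8. Sh3bgr (0.54), Snx17 (0.53), Pgls (0.52), Cdk2ap1 (0.51), Mapre1 (0.50), Hcfc1r1 (0.49), Ppp1cc (0.45) and Hint1 (0.42) were the others.

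Of the 10 named falls, 7 encode proteins of mitochondrial oxidation or fatty acid uptake. The share of such genes among all genes, or among the 100 falls of this kind, was not counted. Changes under 1.5-fold passed chiefly in bright probe sets, as given above. Acadvl, very-long-chain acyl-CoA dehydrogenase, lay between 10939 and 14279 (median 12352) in shams and between 8077 and 10349 (median 8744) after banding, a fall of 0.48 (SE 0.058, adjusted p = 2.49e-06). Cd36, Decr1, Pdha1, Atp5a1, Atp5g2 and Ndufs4 were the other members of that group, with changes between -0.49 and -0.39. Pln, Hdlbp (-0.55), an RNA-binding protein, and Gpbp1 (-0.58), a promoter-binding factor, completed the falls. The choice by smallest p favours passing again: all 20 passed after median centring, after quantile normalization, with the 18S signal in the model and without any 1 array. Of the 10 rises 6 passed with the Gapdh ratio, and of the 10 falls 5. For 6 of the 20 another measured probe set of the gene had the opposite sign, and for Hint1 and Ppp1cc that probe set passed the threshold too (-0.27 and -0.31).

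**Figure D5:**
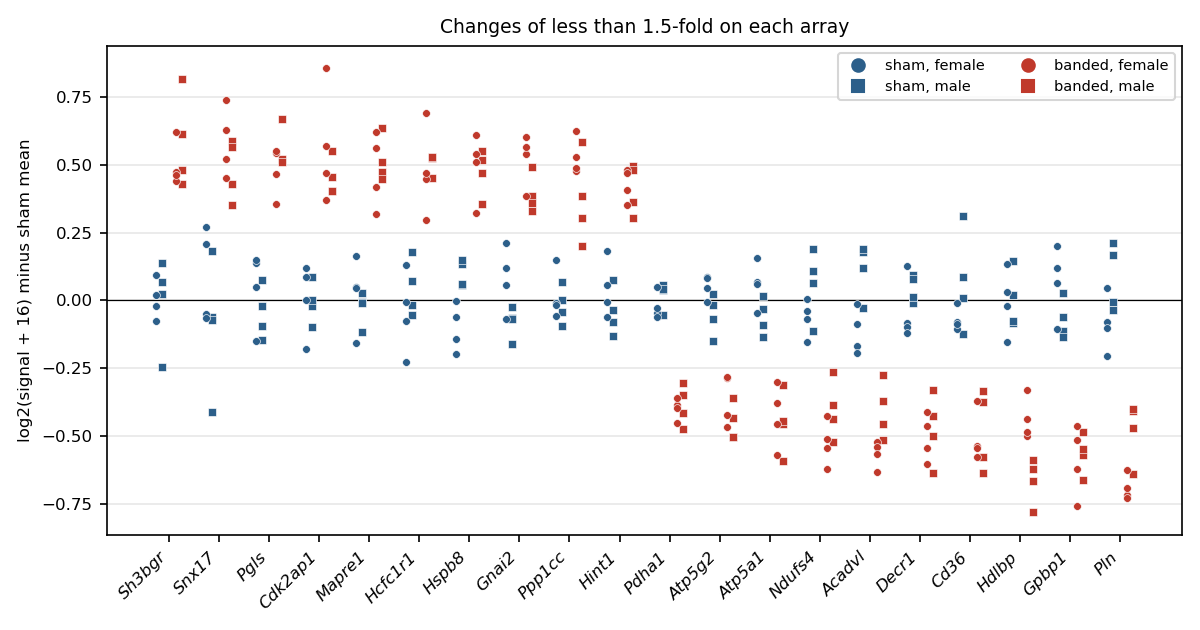
The 20 genes named for changes of less than 1.5-fold, each array shown as log2(signal + 16) minus the mean of the 8 sham arrays. Red points are banded and blue points sham arrays, squares males and circles females; the pooled changes run from 0.54 for Sh3bgr to -0.58 for Pln, and no banded array overlaps a sham array of the same gene.

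Genes that passed on 8 against 8 arrays but within neither sex numbered 656 (7.93%), with 314 rises (3.8%) and 342 falls (4.13%). Lgals3, galectin 3, a lectin of activated macrophages, lay between 141.5 and 338 (median 189) in shams and between 209.2 and 754.3 (median 391) after banding. It rose by 0.94 (SE 0.225, adjusted p = 0.00322), with 0.94 in males (adjusted p = 0.051) and 0.94 in females (adjusted p = 0.057). Nnmt, nicotinamide N-methyltransferase, rose by 1.15 (1.13 and 1.18 in the sexes), Flna by 0.45 (0.46 and 0.43) and the transcription factor gene Zeb1 by 0.36 (0.35 and 0.36). The groups of these 4 genes overlapped.

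Among the falls, Slc25a3, the mitochondrial phosphate carrier, went from 27720 to 32239 (median 30897) to between 23255 and 29768 (median 26123), a change of -0.23 (SE 0.0573, adjusted p = 0.00403), with -0.22 in males and -0.24 in females. Fbxo32, the muscle ubiquitin ligase atrogin-1, fell by 0.58, and Cox6c, a subunit of cytochrome oxidase, by 0.25. Lin7c (-0.61), Rab28 (-0.39), Ckap5 (-0.45), Isoc1 (-0.53) and Usp13 (-0.43) were the other named falls. Slc25a3 and Cox6c did not pass after median centring (adjusted p = 0.14 and 0.12) or under quantile normalization (0.853 and 0.191). Pttg1ip was the 1 of 8 named rises that passed with the Gapdh ratio in the model, and 0 of the 8 falls passed. With the 18S signal 2 rises and 0 falls passed.

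Protein turnover genes moved in both directions. The 7 falls among 13 ubiquitin ligases and regulators of muscle included Asb15 (-1.60), Cul3 (-0.73) and Nedd4 (-0.64), and 0 rose; 4 of the 7 passed with the Gapdh ratio and 4 with the 18S signal. Of 40 proteasome subunits 9 rose, such as Psmd11 by 0.58 and Psmc4 by 0.56. The 2 that fell were Psma1 (-0.41) and Psmd1 (-0.24), and 1 fell without each of male TAC 2, female TAC 5 and male sham 1. The share of proteasome subunits called, 27.5%, was close to the 26.4% of all genes, and 0 of the 11 passed with the Gapdh ratio and 3 with the 18S signal. Of 37 lysosomal genes 12 rose and 5 fell, led by the progranulin gene Grn (1.07, adjusted p = 1.7e-08) and Hexa (0.80), with Npc1 (-1.06) as the largest fall; after median centring 15 rose and 3 fell. Of these 17 changes 3 passed with the Gapdh ratio and 7 with the 18S signal. Cytosolic ribosomal proteins showed 14 rises among 41, by 0.20 for Rps7 up to 0.68 for Rpl35, and 0 falls. That count was 9 without male TAC 1 or without female TAC 5, 12 under quantile normalization and 21 after median centring; 1 of the 14 passed with the Gapdh ratio and 7 with the 18S signal.

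Of 28 cardiac transcription factor genes 9 fell and 2 rose, with 6 falls after median centring. Klf9 fell by 0.95, Hopx by 0.88, Zfpm2 by 0.81, Tbx20 by 0.71 and Mef2a by 0.50, while Srf, serum response factor, rose by 0.67 and Nfatc4 by 0.82, of which 1 passed without each of 8 single arrays. Of these 11 changes 4 passed with the Gapdh ratio and 3 with the 18S signal. Circadian clock genes had the lowest median of the 43 lists, -0.61, with 7 falls among 12. Nr1d2 and Nr1d1, the REV-ERB repressors, fell by 1.07 and 1.02, Dbp by 1.45, Per2 by 1.29 and Per3 by 0.72. Arntl, at 1.13, did not pass (adjusted p = 0.126). None of the 7 passed with the Gapdh ratio in the model and 3 passed with the 18S signal. The time of day at which tissue was taken was not in the model, and its part in these changes was not tested.

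Cell cycle genes included 12 rises among 26, with Cks2 (1.21), Mcm2 (1.19), Rrm2 (1.09), the cyclin genes Ccnd1 (0.55) and Ccnd2 (0.59) and the inhibitor gene Cdkn1a (1.29), and 2 falls, Rrm1 (-0.67) and Cdkn2c (-0.38). With the 18S signal in the model 5 of these 14 changes passed, and with the Gapdh ratio 1. Mki67, a marker of dividing cells, rose by 0.74 (adjusted p = 0.0359), but did not pass when any of 8 single arrays was left out, with the largest adjusted p, 0.0886, without female TAC 5. Immediate early genes had 10 rises among 18 and 0 falls, with Egr1 at 1.78, Btg2 at 1.58 and Jun at 0.61. Btg2 was at 6377 on male TAC 5 and between 1177 and 2210 on the other 7 banded arrays; without that array 10 genes of the list rose as well. Of the 10 rises 3 passed with the Gapdh ratio in the model and 9 with the 18S signal.

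Interferon-stimulated genes had 8 falls among 27 and 0 rises (29.6% called, against 26.4% over all genes, where 13.2% fell). Single arrays moved the count of falls by more than 1.5 times. The median change was -0.93 in males and 0.01 in females, and the difference between the sexes passed for 0 probe sets. Iigp1, an immunity-related GTPase, lay between 2512 and 16738 in shams and between 984.2 and 10395 after banding, with male TAC 5 highest of the banded arrays, and its fall of 1.08 (adjusted p = 0.0229) did not pass without each of 4 single arrays. The number of falls was 4 without male TAC 1, 2 without male TAC 2, 3 without male TAC 4, 5 without female TAC 3, 3 without each of male sham 1, 3 and 4, and up to 11 without other arrays. With either quality measure in the model 0 of the 8 passed.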

How the data were processed

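RNA of the left ventricle was measured on 16 Affymetrix arrays, 1 per animal. The series text names a rat-style array code, RAE 430A, while the probe sets belong to the mouse 430A design. The authors deposited 1 signal intensity per probe set and array, computed with GCOS per the submitters' processing notes; the version and settings are not given in the sources used here. The deposited intensity values were taken as linear. Their trimmed mean lay between 500.21 and 500.25 on every array, and this scaling was kept. Median signals were 189.7 to 222.3. The number of arrays limits the precision, and detection calls were not used.

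From these, log2(signal + 16) was computed, 64 control probe sets and the dimmest 40% of the other 22626 were left out, and limma 3.58.1 (R 4.3.3) was fitted to 13575 probe sets with sex and operation as terms and a trend of the variance with intensity; tests were 2-sided, with Benjamini-Hochberg adjustment. The script was tested on simulated data. Symbols come from the platform annotation (20380 probe sets with 1 symbol, 691 with several, 1555 with none), matched by Entrez ID to RefSeq for 20351. Quality measures were tested by exact permutation within the sexes.

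Members, the 43 gene lists and the marker lists were chosen with earlier results of these data known. Named genes, 1 probe set each, are the 12 largest changes per direction with non-overlapping groups, the 10 of smallest p per direction with less than 1.5-fold and non-overlapping groups, the 8 of smallest p per direction that passed within neither sex, up to 3 members of each list by smallest p, and a fixed set of cardiac genes; other list members are given with their lists. Alternatives were median centring, quantile normalization, a pseudocount of 1 or 64, a 60% filter or none, no trend, array weights, 4 group means, no sex term, a replicate block, each quality measure as a covariate, 1 probe set per gene, each sex alone and each array left out. A serial number at the end of each array name runs through the groups in blocks; if it is an order of processing, it cannot be told apart from the operation.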

Additional observations from a re-analysis of the deposited data

Results flagged for a closer look

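Within the 8 banded or the 8 sham arrays, 374 groups of values were examined, and in 17 of them 1 array lay farther from the rest than a Dixon test at 95% allows; chance alone gives about 1 in 20 such groups.

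Male TAC 5 was the array in 5 of these. Its 18S rRNA signal on the log2 scale was 13.2, against 9.11 to 10.7 on the other banded arrays. Btg2, an antiproliferative immediate early gene, was at 6377 there, against 1177 to 2210. The interferon-stimulated genes Ifit3, at 1592 against 317.4 to 618.7, and Iigp1, at 10390 against 984.2 to 2969, were high on it, and Gnl3, nucleostemin, at 597.5 against 747.2 to 874.5, was low.

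The other banded arrays that stood apart were low for Hopx (6298 on male TAC 2, against 8328 to 10230), Ralgapa1 (54.5 on male TAC 2, against 150.6 to 240.5), Nnmt (62.1 on male TAC 4, against 224.6 to 373.5) and the ubiquitin ligase gene Fbxo32 (274.1 on female TAC 2, against 495.9 to 774.2). They were high for Mtx2 (2896 on male TAC 4, against 1836 to 2254), Rps19 (7925 on male TAC 1, against 4785 to 5909), Pygm (4374 on female TAC 2, against 3399 to 3804) and Cdk2ap1 (6073 on female TAC 5, against 4329 to 4975).

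Among the sham arrays, Myh6 was high on male sham 1, at 58320 against 46210 to 51480. Lin7c, at 317.4 on male sham 1 against 519.6 to 620.1, Ckap5, at 489.5 on female sham 1 against 753 to 879.1, and Timp1, at 50.4 on female sham 3 against 116.7 to 193.5, were low.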

How the results depend on the processing

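The count of 3881 passing probe sets stayed within 1.5 times under quantile normalization, median centring, other pseudocounts, other filters, no trend, array weights, group means, no sex term and the replicate block; 18S or the Gapdh ratio as a covariate and each sex alone moved it further. The count of at least 2-fold changes was 299 with a pseudocount of 64, 745 without a filter and 282 with the dimmest 60% left out. Adding the 18S signal to the model left 1944, 821 rises and 1123 falls, 452 of them under 1.5-fold and 373 within neither sex. With the Gapdh ratio 572 passed, 205 rises and 367 falls, 41 under 1.5-fold, 275 at 2-fold or more and 88 within neither sex. Adjusted over 1 probe set per gene, 2138 genes passed, 1074 rises and 1064 falls, 1332 under 1.5-fold, 190 at 2-fold or more and 660 within neither sex. With males alone 2043 probe sets passed (925 rises, 1118 falls, 538 under 1.5-fold), and with females alone 2003 (878, 1125 and 577).

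Without single arrays the count ran from 3529 to 3780, rises from 1539 to 1683, falls from 1972 to 2134, changes under 1.5-fold from 1869 to 2041, those of at least 2-fold from 445 to 510 and calls in neither sex from 966 to 1126. Ifit3 and Iigp1 changed sign with the 18S covariate (0.16 and 0.21, adjusted p = 0.821 and 0.768); the cause was not tested. Correlations of the deviations of same-numbered animals of the same sex ran from -0.0307 to 0.115, against -0.125 to 0.106 for other pairs. As 5 of the 6 were under 0.1, the numbers were not taken as pairs. With a replicate block over the 6 shared numbers 2767 probe sets passed and 1201 passed with less than 1.5-fold.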

Other observations

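Several other gene groups held calls, some at or below the 26.4% called over all genes. Of 35 integrins and adhesion genes 6 rose and 3 fell (25.7% called; 9 rises and 3 falls after median centring), with the laminin chain Lamb1 at 0.73 and the integrin chain Itgav at 0.82, and with Itgb1, the common β1 chain, at -0.99 (adjusted p = 2.47e-05). Of 18 intercalated disc genes 6 rose and 4 fell (55.6%). The falls included the desmosomal genes Dsc2 (-0.68) and Dsg2 (-0.54) and the tight junction gene Tjp1 (-0.41). After median centring 7 genes of this list rose and 4 fell, and under quantile normalization 4 rose and 6 fell. Antioxidant enzymes held 8 rises and 6 falls among 31 (45.2%): Gpx1 rose by 0.74 and Txn1 by 0.59, while Gstm1 fell by 0.82. In the spliceosome list, with 22.0% called, Srsf5 fell by 1.02 (adjusted p = 1.38e-06) and Srsf2 by 0.62, and 6 of 41 genes rose, a count that was 15 after median centring, 3 without each of female TAC 1 and male sham 4 and female sham 2 and 3, and 10 without female TAC 3 or female sham 1.

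Translation factors moved in both directions. Eif3m fell by 0.94 (adjusted p = 3.23e-07) and the cap-binding factor gene Eif4e by 0.76, while Eef1b2 rose by 0.47. Of 38 genes 7 rose and 6 fell (34.2% called), with 13 rises and 3 falls after median centring and 5 and 7 under quantile normalization, and the rises numbered 4 without each of male TAC 2, female TAC 3 and male sham 2. With the Gapdh ratio in the model 2 of the 9 adhesion, 1 of the 10 intercalated disc, 3 of the 14 antioxidant, 3 of the 9 spliceosome and 3 of the 13 translation factor changes passed, and with the 18S signal 5, 4, 7, 4 and 4.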
